A study of Arabidopsis thaliana with 12 samples.

Results

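The 4 genes described here encode plastid enzymes of pigment and cofactor synthesis: CHLM (AT4G25080) and AT1G74470 of the chlorophyll branch, SIRB (AT1G50170) of the siroheme branch and Z-ISO (AT1G10830) of the carotenoid pathway. They were chosen by pathway from the 691 genes for which the platform annotation lists a probe of their own, and each has 1 such probe. The 12 arrays of this Arabidopsis thaliana study hold total RNA, 6 of them from flu, a mutant of the FLU gene, and 6 from wild type (WT), both in the Landsberg ecotype. Every sample was taken 30 min into the light that followed a dark period of 12 h. Neither the tissue nor the plants' age is stated in the labels, nor whether different arrays hold RNA of different plants. Of 13 marker genes for leaf, root, flower and seed, 0 had a probe of their own, so the tissue was not checked, and neither was the transcript of FLU, which also has none.

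Plants make chlorophyll, heme and siroheme from a common tetrapyrrole path that starts from glutamate in the plastid. FLU is a brake on that start: it binds glutamyl-tRNA reductase and holds synthesis back in the dark, so that a flu plant collects protochlorophyllide at night and produces singlet oxygen when light returns. Siroheme leaves the path early, before protoporphyrin, whereas CHLM acts just after magnesium enters protoporphyrin. AT1G74470 supplies the phytyl tail that is joined to the ring at the end of chlorophyll synthesis. Carotenoids are not tetrapyrroles. They are built from the same plastid isoprenoid pool as the phytyl tail, and they quench singlet oxygen and excited chlorophyll. The comparison asks whether transcripts of these enzymes differed between flu and WT shortly after the light came on.

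For none of the 4 genes was the difference between flu and WT beyond the spread between replicates in the fit reported here, although AT1G74470 and SIRB each passed under 1 alternative given below. AT1G74470 stood 1.25-fold higher in flu, and Z-ISO and CHLM stood 1.12-fold and 1.09-fold higher in WT. SIRB was above the floor defined below on 1 of 6 flu and 4 of 6 WT arrays, so no exact fold is given for it. By limma with Benjamini-Hochberg adjustment over 3128 probes, 0 of the 4 passed an adjusted p of 0.05, while 38.9% of all tested probes did, 17.5% higher and 21.4% lower in flu. The flu and WT values of all 4 genes overlapped, while those of 50.5% of all tested probes did not overlap. With only 4 genes, these counts do not set the genes apart from other probes. A lower signal in such bulk samples can come from fewer cells that express a gene or from less RNA per cell, which cannot be told apart.

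Values are intensities on a linear scale after quantile normalisation. A floor was set at 0.250, the 25th percentile of the normalised table, and dimmer values were set to it before log2 was taken. The order of signals that dim was not relied on, and whether they hold information was not tested. Arrays came in closely similar pairs in each group, array 1 with 2, array 3 with 4 and array 5 with 6. The pairs were averaged and each counted as 1 replicate, which gave 3 pair means per group. The WT pairs were less alike than the flu pairs, with correlations of log2 values of 0.860 to 0.920 in WT and 0.947 to 0.974 in flu.

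**Figure D1:**
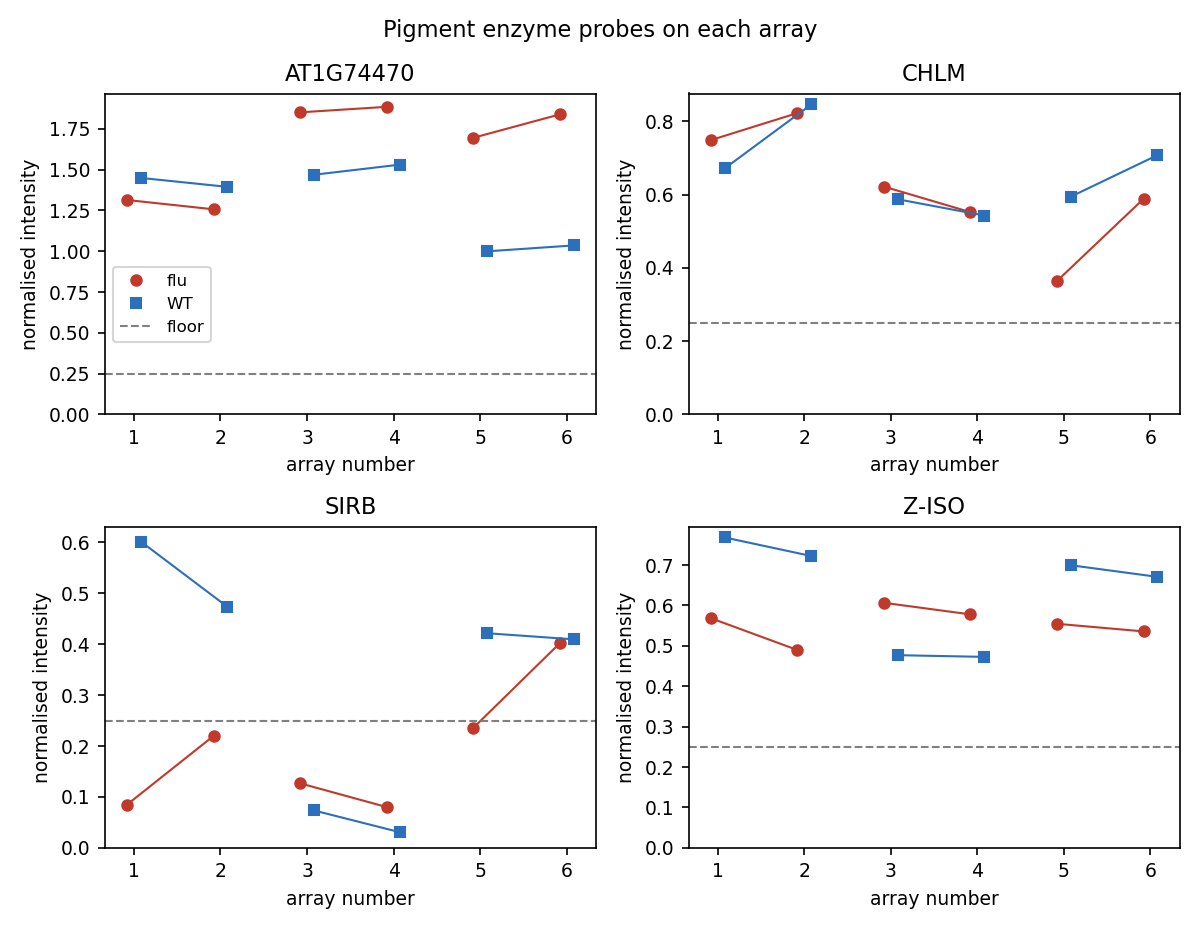
Normalised intensity (linear scale) of AT1G74470, CHLM, SIRB and Z-ISO against array number, with flu as circles, WT as squares, a line joining the 2 arrays of a pair and a dashed line at the floor of 0.250. SIRB was under the floor on 5 flu arrays and on WT arrays 3 and 4, and AT1G74470 in WT was lowest on arrays 5 and 6.

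AT1G74470 encodes geranylgeranyl reductase, which turns the geranylgeranyl chain into the phytyl chain of chlorophyll and of tocopherol. On flu arrays 1 to 6 its intensity was 1.31, 1.26, 1.85, 1.89, 1.70 and 1.84. On WT arrays 1 to 6 it was 1.45, 1.39, 1.47, 1.53, 0.999 and 1.04. The flu arrays 3 to 6 were above every WT array, and flu arrays 1 and 2 were below WT arrays 1 to 4. All 12 arrays were above the floor, the brightest at 7.55 times its value. The mean of the 3 pair means was 1.64 ± 0.311 (SD) in flu and 1.31 ± 0.259 in WT. On the log2 scale flu stood 0.32 above WT, with an SE of 0.22 and a 95% interval of -0.20 to 0.85 (limma adjusted p = 0.289). That interval runs from 0.869-fold to 1.80-fold, so a moderate difference in either direction is within it.

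The arrays of a pair gave nearly the same AT1G74470 value, with a median gap of 0.06 and at most 0.12 on the log2 scale. The pairs of a group differed much more, by up to 0.54 in flu and 0.56 in WT. The spread of this gene therefore lay between array pairs and not between the arrays of a pair. Among same-numbered pairs, flu minus WT was -0.15, 0.32 and 0.80 on the log2 scale, so flu was higher in 2 of 3. Without WT arrays 5 and 6, the log2 difference was 0.15 (limma adjusted p = 0.611), and without flu arrays 1 and 2 it was 0.49 (limma adjusted p = 0.151).

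CHLM encodes the methyltransferase that adds a methyl group from S-adenosylmethionine to magnesium-protoporphyrin, a step on the way to protochlorophyllide. Its intensity on flu arrays 1 to 6 was 0.749, 0.823, 0.622, 0.552, 0.364 and 0.589. On WT arrays 1 to 6 it was 0.672, 0.847, 0.587, 0.543, 0.595 and 0.708. Flu and WT covered nearly the same range on the first 4 arrays of each group, and flu array 5 was the lowest of all 12. The 3 pair means averaged 0.611 ± 0.163 (SD) in flu and 0.656 ± 0.095 in WT. The log2 difference was -0.12 (SE 0.22, 95% interval -0.66 to 0.41, limma adjusted p = 0.695).

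The direction for CHLM rested on flu arrays 5 and 6. Their log2 difference from WT arrays 5 and 6 was -0.49, against 0.06 and 0.05 for the other pairs, and those arrays themselves lay 0.69 apart on the log2 scale. Without them the log2 difference was 0.06 (limma adjusted p = 0.856). CHLM was above the floor on all 12 arrays, between 1.46 and 3.39 times the floor.

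SIRB encodes the ferrochelatase that puts iron into sirohydrochlorin, which yields siroheme, the cofactor of nitrite and sulfite reductase. The normalised values on flu arrays 1 to 6 were 0.0848, 0.220, 0.127, 0.0802, 0.235 and 0.402, and only array 6 was above the floor. On WT arrays 1 to 6 they were 0.602, 0.474, 0.0735, 0.0304, 0.422 and 0.410, so 4 of 6 were above the floor and arrays 3 and 4 were not. The dim arrays of WT were thus 1 pair. The same-numbered flu arrays 3 and 4 were under the floor too, but so was every other flu array except array 6. With the floor applied, the 3 pair means averaged 0.272 ± 0.039 (SD) in flu and 0.400 ± 0.143 in WT. The log2 difference was -0.50 (SE 0.29, 95% interval -1.20 to 0.21, limma adjusted p = 0.228), and its size depends on where the floor is set.

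In the same-numbered pairs, SIRB in WT stood at 2.14 times the floor for the first pair, where both flu arrays were at the floor, so WT was at least 2.14-fold higher there. For the third pair WT was 1.31-fold above flu, a value that depends on the floor because flu array 5 was at it. For the second pair all 4 arrays were at the floor, which gives no difference. Without WT arrays 3 and 4 the call changed: the log2 difference was -0.80 (SE 0.18, limma adjusted p = 0.024). In that fit 41.5% of all probes passed, and flu arrays 3 and 4, at the floor as well, stayed in it. The flu pair means of arrays 1 and 2 and of arrays 3 and 4 were then both exactly the floor value. The SE and the pass therefore depend on the floor too. With the floor at the 10th percentile, the SE grew to 0.59 for a log2 difference of -0.70 (limma adjusted p = 0.384).

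Z-ISO encodes the isomerase that acts on zeta-carotene between the desaturation steps leading to lycopene, and it is needed where light cannot do that isomerisation. On flu arrays 1 to 6 its intensity was 0.569, 0.490, 0.607, 0.578, 0.555 and 0.536. On WT arrays 1 to 6 it was 0.768, 0.722, 0.477, 0.473, 0.700 and 0.671. WT arrays 1, 2, 5 and 6 were above every flu array, and WT arrays 3 and 4 were below every flu array. The flu values kept to a narrow band, with pair means of 0.555 ± 0.033 (SD, n = 3) against 0.635 ± 0.142 in WT. The log2 difference was -0.17 (SE 0.19, 95% interval -0.63 to 0.29, limma adjusted p = 0.524).

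WT arrays 3 and 4 set the WT spread of Z-ISO, as they did for SIRB. The pair means of WT differed by up to 1.57-fold and those of flu by 1.12-fold, while the arrays of a pair lay 0.01 to 0.22 apart on the log2 scale. In same-numbered pairs flu minus WT was -0.50, 0.32 and -0.33, so flu was lower in 2 of 3. Without WT arrays 3 and 4 the log2 difference was -0.37 (SE 0.11, limma adjusted p = 0.054), which still did not pass. Over all tested probes, WT arrays 3 and 4 gave the lowest of the WT pair means for 34.7% of probes, against 25.6% and 28.9% for the other WT pairs. Among probes of 1 gene the share was 31.4%, against 25.8% and 30%. WT arrays 1 and 2 also stood apart, with the highest WT pair mean for 43.1% of probes, against 27.3% and 26.3% for the other WT pairs.

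**Figure D2:**
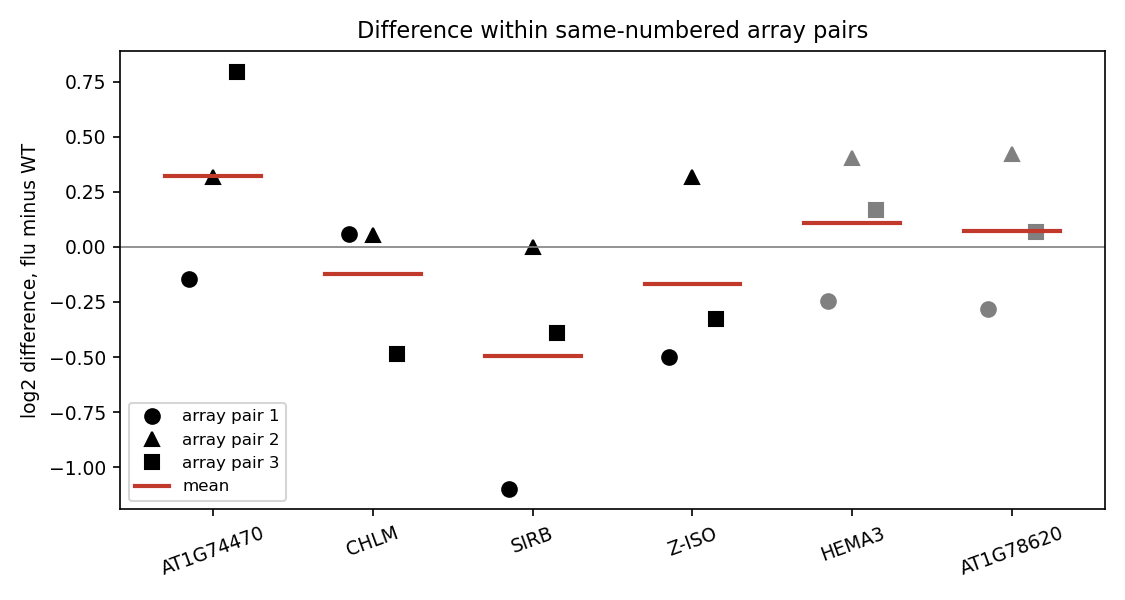
Log2 difference, flu minus WT, within each same-numbered array pair (circle, triangle and square for pairs 1, 2 and 3) with the mean as a bar, for the 4 enzymes in black and HEMA3 and AT1G78620 in grey. For AT1G74470, Z-ISO, HEMA3 and AT1G78620 pair 1 was below 0 and pair 2 above it, and SIRB was at 0 in pair 2, where all 4 arrays were at the floor.

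The rest of the pathway was little covered by probes of single genes. Of 89 genes in 7 lists for tetrapyrrole, chlorophyll, heme, siroheme, carotenoid and isoprenoid metabolism, 6 had a probe of their own, and 0 of these 6 passed in either direction, where 38.9% of all tested probes did. The lists for the heme and bilin branch and for chlorophyll breakdown had 0 such genes. A further 5 genes lie only on 3 probes that the annotation gives to several genes, and they were not used. Besides the 4 enzymes, the 6 include HEMA3, a gene of the glutamyl-tRNA reductase family, and AT1G78620, the phytyl-phosphate kinase VTE6 of phytol salvage. Whether FLU acts on the HEMA3 member of that family was not tested.

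HEMA3 averaged 0.712 ± 0.046 (SD, 3 pair means) in flu and 0.668 ± 0.134 in WT. The log2 difference of 0.11 had an SE of 0.17 (limma adjusted p = 0.657). Its same-numbered pairs gave -0.25, 0.40 and 0.17, so the pairs did not share a direction. AT1G78620 stood at 0.440 ± 0.060 in flu and 0.427 ± 0.116 in WT. Flu minus WT was 0.070 on the log2 scale with an SE of 0.22 (limma adjusted p = 0.831), and -0.067 without quantile normalisation. Its same-numbered pairs gave -0.28, 0.42 and 0.07. In WT, HEMA3 was lowest on arrays 3 and 4, like Z-ISO, and for AT1G78620 arrays 3 to 6 were all below arrays 1 and 2.

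The 4 enzymes had a median log2 difference of -0.15, and all tested probes one of -0.04. The median size, whatever its direction, was 0.25 for the 4 and 0.46 for all tested probes. A larger difference was seen in 62.6% of all probes for AT1G74470, 77.3% for Z-ISO and 82.3% for CHLM, so these sizes were under that of the middle probe. SIRB is not ranked, since 7 of its 12 arrays were at the floor. The precision for the 4 was a little lower than usual, with a median SE of 0.22 against 0.18. At its own SE, a log2 difference of 0.59 for Z-ISO, 0.68 for AT1G74470, 0.70 for CHLM and 0.91 for SIRB would have been needed to pass. Observed differences under 1.51-fold for Z-ISO and under 1.88-fold for SIRB would therefore not have passed at these errors. These are limits on observed and not on true differences, and the one for SIRB rests on floored values.

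**Figure D3:**
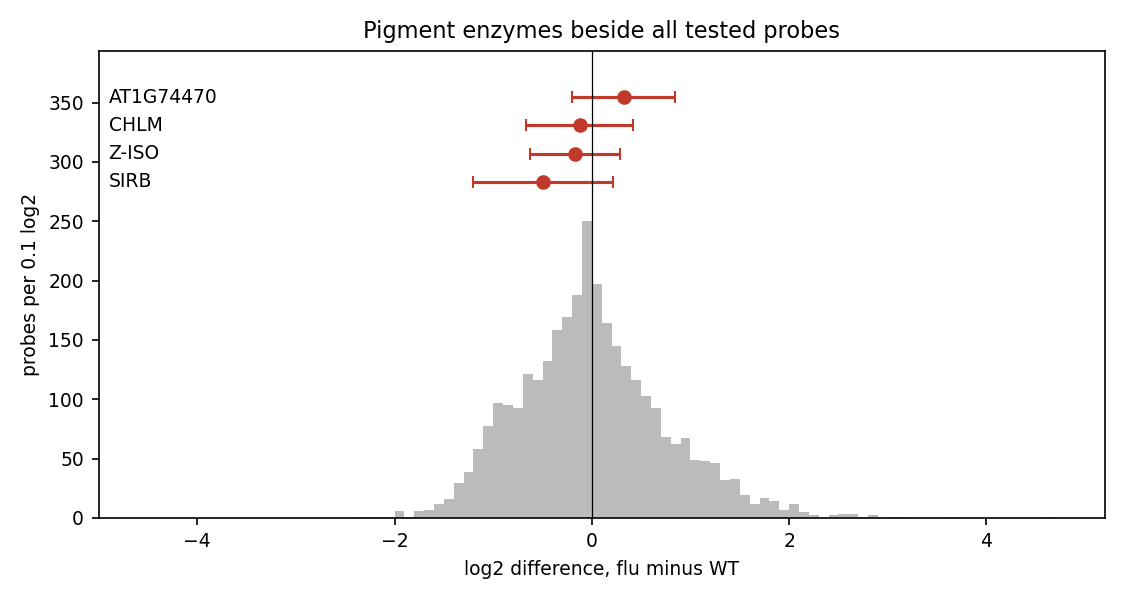
Histogram of the log2 differences (flu minus WT, x axis) of all 3128 tested probes, with the number of probes per bin on the y axis, and above it the 4 enzymes as points with 95% limma intervals. All 4 intervals include 0, and the points lie between -0.50 and 0.32.

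Differences on these arrays may also depend on probe number, for which no value over all probes is given here. All 4 genes have numbers at which other probes were mostly lower in flu. The dependence looked at was one that repeats along the numbers, with a period that was chosen on these same data. Of all 3128 tested probes, 1454 were higher in flu. Of the other tested probes at the same place in that repeat, those lower in flu were 12 of 15 for CHLM, 9 of 13 for AT1G74470, 7 of 9 for SIRB and 10 of 11 for Z-ISO. Their log2 differences spanned -2.34 to 1.52 for CHLM, -1.51 to 0.77 for AT1G74470, -0.76 to 0.25 for SIRB and -1.46 to 0.59 for Z-ISO. A mean over so few probes may hold real differences between flu and WT, which was not tested. With the mean deviation of those probes subtracted on each array, 36.4% of all probes passed and 0 of the 4 enzymes. CHLM then stood at 0.36 and Z-ISO at 0.46 on the log2 scale, both turned in direction (limma adjusted p = 0.237 and 0.069). AT1G74470 then stood at 0.69 (limma adjusted p = 0.066) and SIRB at -0.18 (limma adjusted p = 0.556). With the median of the probes within 12 numbers to each side subtracted instead, 1 of the 4 passed, AT1G74470 at 0.54 (SE 0.17, limma adjusted p = 0.039), and so did 39.7% of all probes. CHLM and Z-ISO were then at 0.11 and 0.20, and SIRB at -0.19. For SIRB these corrections act on floored values. Whether probe number stands for a place on the array was not tested.

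**Figure D4:**
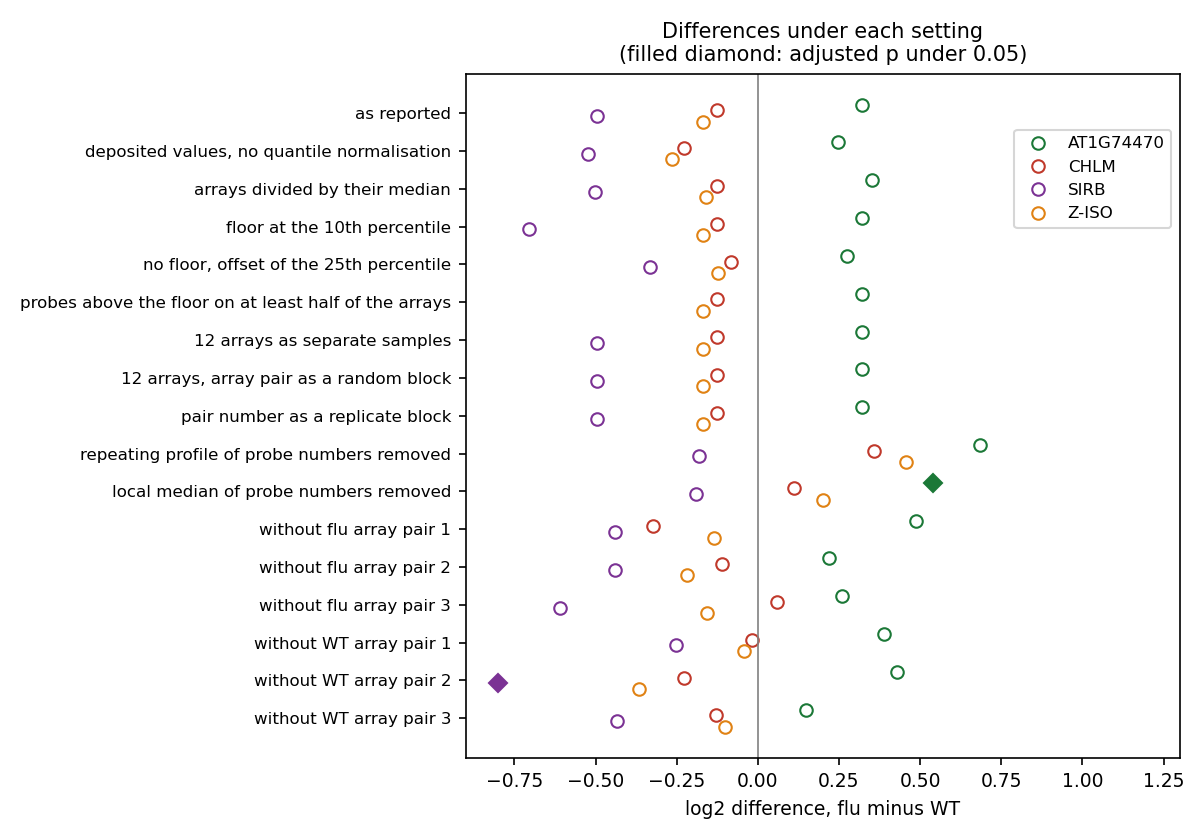
Log2 difference, flu minus WT, of the 4 enzymes (x axis) under the main setting and each alternative (y axis), with filled diamonds where the limma adjusted p was under 0.05. AT1G74470 was above 0 and SIRB below 0 throughout, CHLM and Z-ISO lay on either side of 0, and the diamonds are AT1G74470 at 0.54 and SIRB at -0.80.

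The genes whose profiles were most like those of the 4 enzymes were sought among named genes whose own probe was above the floor on all 12 arrays, 308 besides the gene itself, or 309 for SIRB. Likeness is the root mean square difference of centred log2 values over the 12 arrays, given as a description. CHLM was closest to AT2G04790, at 0.21, and AT3G20680, at 0.23, where the median gene was 0.50 away. AT1G74470 was closest to AT1G31220 and AT3G07790, at 0.18 and 0.20 with a median of 0.50. SIRB was closest to AT1G05340, at 0.19, and AT4G34310, at 0.26 with a median of 0.53. The SIRB profile holds the floor value on 7 of its 12 arrays, so this likeness depends on where the floor is set. Z-ISO was closest to CML30, a calmodulin-like gene, at 0.13, and AT5G17280, at 0.14 with a median of 0.45. Of these 8 genes, which were picked for likeness to enzymes that did not pass, 1 passed, where 38.9% of all tested probes did. It was AT4G34310, with a log2 difference of -0.53 (limma adjusted p = 0.037).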

How the data were processed

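RNA of 6 flu and 6 WT arrays was analysed from the deposited series table, which holds 1 intensity per probe for 3439 probes. The deposited intensities run from 0 to 100; no label says how the authors corrected or scaled them. The array medians were 0.426 to 0.442 in flu and 0.443 to 0.491 in WT, so quantile normalisation took away an offset in level of flu against WT. Of all probes, 311 were at the floor on every array and were not tested; the 4 enzymes were all tested. The number of arrays limits the precision.

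Arrays of a pair deviated together from their group mean, with correlations of 0.21 to 0.68 against -0.55 to -0.04 for other arrays of the group. The group mean includes the arrays compared, which in itself pulls these correlations down. Without subtracting it, the most correlated array was the partner for all 12 arrays. Arrays of a pair may be repeat arrays of 1 sample and were averaged. If the arrays of a group are technical repeats throughout, the p-values measure technical spread. Pair means of the same number in flu and WT also deviated together (0.46, 0.38 and 0.26), so the numbers may pair the samples. That rests on these correlations only, without those of unlike numbers beside them. No label gives such a pairing, and the reported fit leaves it out. The fit used lmFit and eBayes of limma 3.58.1 under R 4.3.3, with two-sided tests. The fit and the removal of the repeating profile were tested on simulated data, which had independent values and no floor. The local median correction was not tested in this way.

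Probe names come from GEO's platform annotation, which may be out of date, updated with the TAIR10.1 gene table: 692 probes have 1 gene, of which 690 matched, 870 have several and 1877 are not listed. No coordinates are printed, since no source used here names the probes' build. Genes named are the 4 enzymes, every gene of the pathway lists with a probe of its own, and the 2 genes most like each enzyme. The enzymes, lists and tests were chosen with earlier results of these data known. Alternatives changed normalisation, floor, filter, replicate unit, block and probe-number correction, and left out each array pair.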

Additional observations from a re-analysis of the deposited data

Results flagged for a closer look

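SIRB in flu had 1 array far from the others: array 6, at a normalised intensity of 0.402, was the only flu array above the floor, so its gap to the nearest other array was the whole range of the group (ratio 1). The other 5 arrays were at the floor, including array 5 of the same pair at 0.235 before the floor was applied. The floor itself fixes that ratio: before it was applied the gap was 0.518 of the linear range and 0.332 of the log2 range, which would not stand out. In all, 12 groups of 6 arrays were compared in this way, and the usual chance rate of about 1 in 20 does not hold for tied values.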

How the results depend on the processing

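Of the 16 alternatives run for CHLM, AT1G74470 and Z-ISO and the 15 for SIRB, AT1G74470 kept its direction in 16 and SIRB in 15, and each passed in 1. The alternative not run for SIRB kept only probes above the floor on at least 6 arrays, which leaves SIRB out. AT1G74470 passed with the local median by probe number removed (0.54), and SIRB without WT arrays 3 and 4 (-0.80). CHLM turned in 3 alternatives, to 0.36 and 0.11 with the repeating profile of probe numbers and the local median removed and to 0.059 without flu arrays 5 and 6, and Z-ISO turned to 0.46 and 0.20 with those 2 corrections; the cause was not tested. Leaving out each array pair gave -0.32 to 0.059 for CHLM, 0.15 to 0.49 for AT1G74470, -0.80 to -0.25 for SIRB, -0.37 to -0.04 for Z-ISO and 840 to 1299 called probes. HEMA3 ranged from -0.048 to 0.25 with array pairs left out, the lowest without WT arrays 3 and 4, and stood at 0.50 with the repeating profile removed. AT1G78620 turned to -0.067 without quantile normalisation, to -0.0084 without flu arrays 3 and 4, and to -0.028 and -0.046 without WT arrays 3 and 4 or 5 and 6; its highest value was 0.28 with a pair left out and 0.39 with the repeating profile removed. With the pair number as a replicate block the log2 differences were the same and no call changed (limma adjusted p = 0.572 for CHLM, 0.264 for AT1G74470, 0.149 for SIRB and 0.522 for Z-ISO), with 1371 called probes against 1216. Taken as 12 separate arrays, 1732 probes passed and the 4 enzymes did not, with AT1G74470 at 0.083 and SIRB at 0.073 (limma adjusted p). SIRB is limited by signal, with 5 of 12 arrays above the floor.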
